A study of Mus musculus with 12 samples.

Results

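The TLR4 receptor complex was described here through 5 genes, Tlr4, Ly96, Cd14, Cd180 and Ly86, of the 43453 genes in the deposited count table. They were taken by symbol, as the receptor of lipopolysaccharide (LPS), its co-receptors and the related receptor pair RP105/MD-1. No measured value was used in the choice, but earlier results of these data were known when it was made. For each gene, the transcript row with the highest total count was used. Tlr4 had 1 transcript row, Cd14 and Ly86 had 1 each, and Ly96 and Cd180 had 2 each.

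TLR4 is the cell surface receptor through which macrophages sense LPS of Gram-negative bacteria. It binds LPS only together with MD-2, the small secreted protein encoded by Ly96, while CD14, a protein anchored in the outer membrane leaflet, hands LPS to the TLR4/MD-2 pair and carries the receptor into endosomes. RP105, encoded by Cd180, resembles the TLR4 ectodomain but lacks the intracellular TIR signalling domain. It needs MD-1, encoded by Ly86 and related to MD-2, for its surface display, and is known both for promoting B cell responses to LPS and for restraining TLR4 in myeloid cells.

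The series held RNA-seq of bone marrow-derived macrophages (BMDMs) from C57BL/6 mice with loxP-flanked tlr4 alleles, tlr4f/f, and from tlr4f/f-lysM-cre mice, which carry in addition a cre gene driven by the lysozyme M promoter, active in myeloid cells. The loxP-flanked alleles were thus common to all groups, and the controls had no cre. Bone marrow cells were differentiated with 50 ng/mL M-CSF for 7 days and were left untreated or received 1 µg/mL LPS for 6 hours, in 4 groups of 3 libraries, which are lettered here. Group A has the column heading LPS- tlr4f/f, and group B has LPS- tlr4f/f-lysM-cre. Group C has LPS+ tlr4f/f as its heading, and for group D it is LPS+ tlr4f/f-lysM-cre. The age and sex of the bone marrow donors, and whether the 3 libraries of a group came from separate mice or cultures, were not given in the sources used here, so that p-values measure the spread between these libraries, which may be technical.

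The libraries held 33577440 to 56445989 counts over genes. The 7 macrophage markers were all detected, with summed levels of 4106 to 9285 TMM CPM, that is, CPM scaled by the trimmed mean of M values to correct for library composition, and B and T lymphocyte markers summed to at most 7.06 and 0.187 TMM CPM. In a check list of 12 genes known to respond to LPS, the summed level was 76.2 to 857 TMM CPM in group A, 34144 to 58128 in group B, 82.6 to 92.7 in group C and 13538 to 16150 in group D. The check list was thus high under a heading of untreated cells and low under a heading of treated cells. For this reason the letters stand for column headings, and each comparison is given in 2 readings. In the first reading the headings are taken as they stand. In the other reading the headings of groups B and C are exchanged, so that group B is treated tlr4f/f cells and group C is untreated tlr4f/f-lysM-cre cells.

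Tlr4 encodes the receptor itself and is the targeted gene. It lies on the plus strand at chr4:66827584-66930284 (mm10). Its single row sums the reads of a whole transcript, so it does not show which exon was lost in a deletion. In the annotation, 1 of the 3 exons of this transcript, exon 3, holds 87.6% of its bases. In group A, Tlr4 was at 77.0, 146 and 121 TMM CPM, a mean of 114.5 ± 34.8 (SD, n = 3). In group B it was at 117, 94.7 and 116 TMM CPM, a mean of 109 ± 12.7 (SD, n = 3). These groups overlapped, the lowest and the highest of the 6 libraries both being in group A. In group C, Tlr4 was at 31.2, 28.0 and 24.5 TMM CPM, a mean of 27.9 ± 3.37 (SD, n = 3). In group D it was at 27.4, 24.4 and 24.7 TMM CPM, a mean of 25.5 ± 1.65 (SD, n = 3). These groups also overlapped, and all 6 of their libraries lay below every library headed LPS-. Groups did not overlap for 48.4% of all genes tested between D and B and for 35.1% between C and A. The share of all genes with a split of 6 against 6 libraries was not counted.

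With the headings as they stand, Tlr4 therefore separated the LPS headings and not the genotypes, the 6 tlr4f/f libraries ranging from 24.5 to 146 TMM CPM and the 6 tlr4f/f-lysM-cre libraries from 24.4 to 117. With the headings exchanged, the same values separated the genotypes and not the treatments, with 77.0 to 146 TMM CPM in the 6 tlr4f/f libraries and 24.4 to 31.2 in the 6 tlr4f/f-lysM-cre libraries. Lyz2, the lysozyme M gene into which lysM-cre is inserted, split the libraries in the same way, with 5953 to 23331 TMM CPM under the 2 LPS- headings and 10.4 to 75.3 under the 2 LPS+ headings. Lyz2 was named from its place among the genes most like Tlr4 over these libraries (r = 0.951). A like split therefore follows from that choice and is not a separate observation. Tlr4 RNA was still counted in every library, with at least 891 counts.

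Ly96 encodes MD-2, the LPS-binding partner of TLR4. It lies on the plus strand at chr1:16688051-16709611 (mm10). Its 2 rows differ by 54 coding bases at the start of exon 3, chr1:16700795-16700848, which the longer row holds and the shorter row lacks. They are shown because they set the longer row apart inside the span that both transcripts share. The capitals mark these 54 bases, and the 15 bases of the transcript on either side are in lower case, those to the left from the end of exon 2.
Ly96, longer transcript: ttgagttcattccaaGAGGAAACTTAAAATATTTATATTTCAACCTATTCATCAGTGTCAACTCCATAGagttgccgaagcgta
The shorter row held 59.2% to 69.3% of the count of the longer row, with a median of 64.1% over the 12 libraries. How reads common to both transcripts were assigned is not given in the sources used here, so that these percentages are not shares of isoforms.

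Ly96 had the lowest count of the 5 members summed over the 12 libraries, 4891 against 20804 for Ly86, the next lowest, with 211 to 776 counts a library. In group A it was at 5.23, 5.35 and 5.08 TMM CPM, a mean of 5.22 ± 0.138 (SD, n = 3). In group C it was at 5.13, 5.44 and 5.74 TMM CPM, a mean of 5.44 ± 0.304 (SD, n = 3). The 6 libraries of these headings covered the same narrow range. In group B, Ly96 was at 8.56, 16.2 and 24.1 TMM CPM, a mean of 16.3 ± 7.79 (SD, n = 3). In group D it was at 14.6, 13.1 and 10.3 TMM CPM, a mean of 12.7 ± 2.19 (SD, n = 3). The 6 libraries headed tlr4f/f-lysM-cre overlapped each other and all lay above the 6 headed tlr4f/f. This separation follows genotype as headed and LPS with the headings exchanged. The share of all genes that split the 6 and 6 libraries in this way was not counted. Groups did not overlap for 54.4% of all genes tested between B and A and for 67.4% between D and C.

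Cd14 encodes the co-receptor that delivers LPS to TLR4/MD-2. It lies on the minus strand at chr18:36725067-36726798 (mm10). It was the highest member in every library, at 839 to 1254 TMM CPM in group A, where the values were 1207, 839 and 1254 and the mean was 1100 ± 227.5 (SD, n = 3). In group B it was at 5114, 2625 and 2612 TMM CPM, a mean of 3450 ± 1441 (SD, n = 3). BMDM1 stood above the other 2 libraries there, which were nearly equal. In group C, Cd14 was at 538.5, 556 and 497 TMM CPM, a mean of 531 ± 30.3 (SD, n = 3). In group D it was at 2082, 2144 and 1959 TMM CPM, a mean of 2061 ± 94.2 (SD, n = 3). No 2 of the 4 groups overlapped, in the order group C, group A, groups D and B. The 6 libraries headed tlr4f/f-lysM-cre thus lay above the 6 headed tlr4f/f, as for Ly96. Among all genes tested, 54.4% had no overlap between B and A and 67.4% had none between D and C.

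Cd180 encodes RP105. It lies on the plus strand at chr13:102693558-102739629 (mm10), where its end overlaps the gene Mast4 of the opposite strand. The library kit does not mark strand, so reads from the overlap cannot be assigned to either gene by strand. Its second row held 73.2% to 76.4% of the count of the row used. In group A, Cd180 was at 229.9, 369.5 and 304 TMM CPM, a mean of 301 ± 69.8 (SD, n = 3). In group B it was at 165, 751 and 345.5 TMM CPM, a mean of 420.3 ± 300.1 (SD, n = 3). The lowest and the highest of all 12 libraries were both in the latter group, BMDM1 and BMDM2. In group C, Cd180 was at 337, 339 and 325 TMM CPM, a mean of 333 ± 7.79 (SD, n = 3). In group D it was at 414.5, 426 and 371 TMM CPM, a mean of 404 ± 28.9 (SD, n = 3). The LPS+ groups were each tight and did not overlap, while both LPS- groups overlapped with group C.

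Ly86 encodes MD-1, the partner of RP105. It lies on the plus strand at chr13:37345208-37419036 (mm10). In group A it had 9, 4126 and 1307 counts, or 0.154, 65.8 and 24.5 TMM CPM. In group B it had 9, 4176 and 2473 counts, or 0.242, 130.1 and 76.9 TMM CPM. Ly86 was therefore nearly absent from BMDM1 of both LPS- headings and present in the other libraries of these groups. In group C it was at 42.5, 44.5 and 21.25 TMM CPM, a mean of 36.1 ± 12.9 (SD, n = 3). In group D it was at 35.8, 33.1 and 21.5 TMM CPM, a mean of 30.1 ± 7.59 (SD, n = 3). In both LPS+ groups BMDM3 was the low library, and the groups overlapped.

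**Figure D1:**
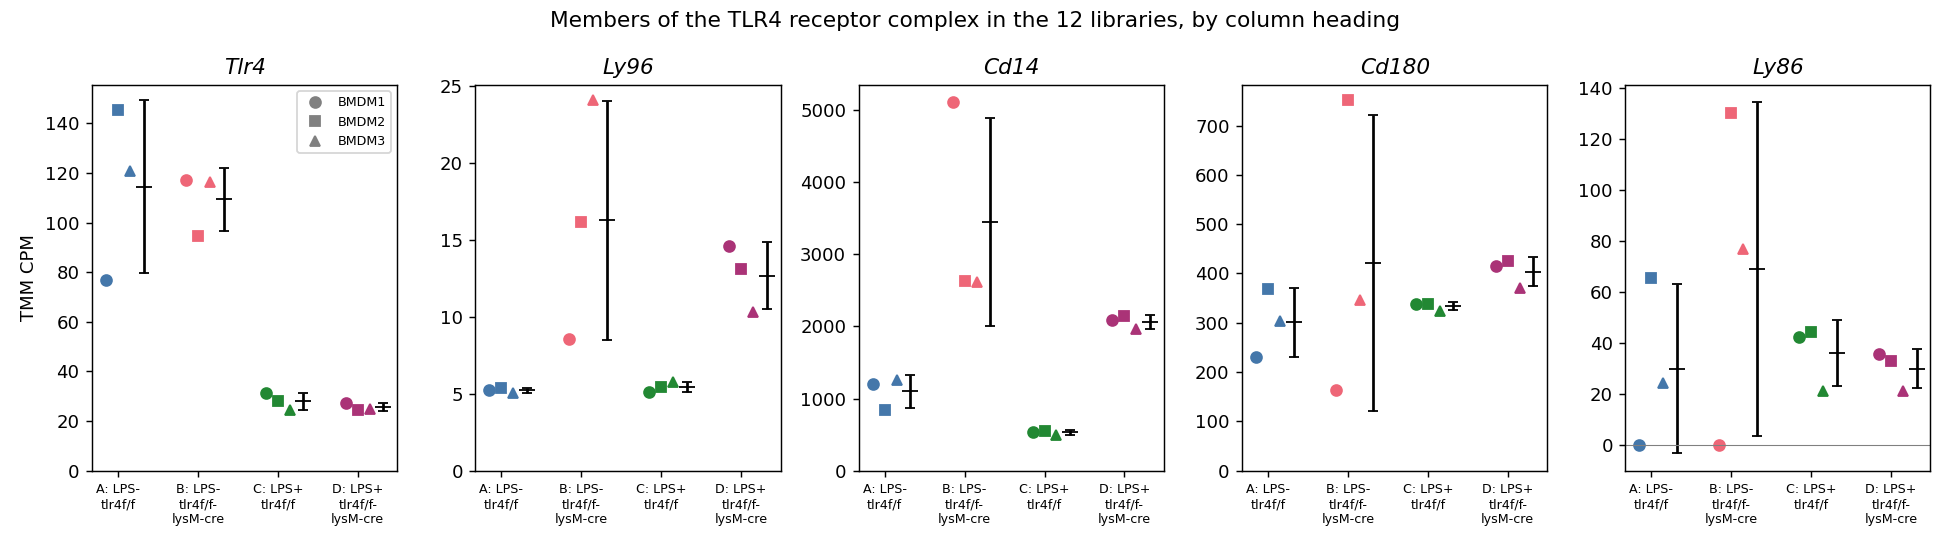
Level of each member in TMM CPM (y axis, linear, a scale for each gene) in the 12 libraries, grouped by column heading (x axis). Symbols are libraries BMDM1 to BMDM3, and black bars are the mean ± SD of 3 libraries. Tlr4 is at 77.0 to 146 under the LPS- headings and at 24.4 to 31.2 under the LPS+ headings, Ly96 and Cd14 are higher in groups B and D than in A and C, and Ly86 is at 0.154 and 0.242 in BMDM1 of the LPS- headings.

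Over the 10 libraries other than BMDM1 of the LPS- headings, Ly86 ranged from 21.25 to 130.1 TMM CPM, 88.0-fold or more above those 2 libraries. Among 15792 genes kept over the 4 groups, 3 were at least 10-fold lower in both of these libraries than in every one of the other 10, with a minimum of 1 TMM CPM in each of the 10, and 1 was at least 10-fold higher. These genes were looked for after the values of Ly86 had been seen. The other lower genes were C1qb, a chain of complement C1q made by macrophages, at 9.90 and 11.8 TMM CPM against 214 to 1714, and Gdf3, a growth factor of the TGF-beta superfamily, at 0.532 and 0.161 against 6.51 to 36.0. The higher gene was Gm39701, at 670.2 and 760.0 TMM CPM against 0.0937 to 53.5.

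Cd180, the partner of Ly86, was also lowest in these libraries, which ranked first and second from the bottom of the 12, but at 165 and 229.9 TMM CPM it was far from absent. The other members did not share this order. Tlr4 ranked 7 and 10 of 12 from the bottom in BMDM1 of groups A and B, Cd14 ranked 5 and 12, and Ly96 ranked 3 and 7. Stromal cell markers, a list of 5 genes with none at 0 over the series, summed to 657 and 922 TMM CPM in these 2 libraries, to 8.71 to 1461 in the other 4 LPS- libraries and to 20.0 to 43.0 under the LPS+ headings. The part of these cells in the Ly86 values was not tested, and in bulk RNA fewer cells of a type and less RNA per cell cannot be told apart.

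**Figure D2:**
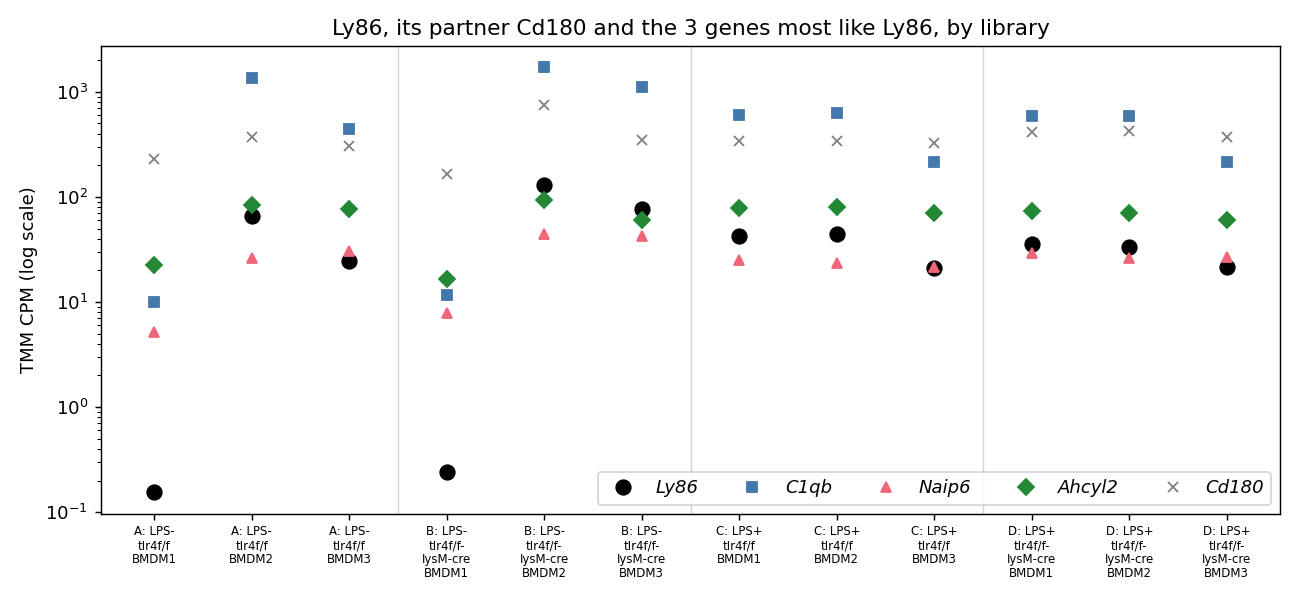
TMM CPM (y axis, log scale) of Ly86, of its partner Cd180 and of C1qb, Naip6 and Ahcyl2, the 3 genes whose pattern was most like that of Ly86, in each of the 12 libraries (x axis, by column heading). Each point is 1 library, and Ly86 falls to 0.154 and 0.242 in BMDM1 of the 2 LPS- headings, where C1qb is at 9.90 and 11.8.

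Per kilobase of the transcript lengths in the table, the members had an order in which Cd14 was first and Cd180 second under all 4 headings. Among the 15792 genes kept, ranked by mean TMM CPM per kilobase, Cd14 was at rank 28 to 169 and Cd180 at rank 382 to 568. Ly86 was at rank 1340 to 2444. Ly96 was at rank 5836 and 5609 in groups A and C, and at rank 2910 and 3217 in groups B and D. Tlr4 was at rank 4099 and 4495 under the LPS- headings and at rank 8386 and 8409 under the LPS+ headings. It was thus last of the 5 under all headings other than group A, where Ly96 was last, with means of 8.66 ± 0.229 for Ly96 and 14.5 ± 4.41 for Tlr4 (TMM CPM per kilobase, SD, n = 3). The table gives 7891 bases for the Tlr4 transcript, 1.94 times its exon bases in the GENCODE annotation. Its level per kilobase, its rank and its place among the 5 members therefore depend on the annotation.

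Ratios of 2 members within a library do not depend on the scaling between libraries. The log2 ratio of Ly96 to Tlr4 counts was -3.88, -4.76 and -4.57 in group A and -3.77, -2.55 and -2.27 in group B. It was -2.60, -2.36 and -2.09 in group C and -0.91, -0.90 and -1.26 in group D. The libraries of group D, in which Tlr4 was low and Ly96 high, had a higher ratio than all others, with a mean log2 ratio of -1.02 ± 0.21 (SD, n = 3). Group D has the same heading in both readings.

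The log2 ratio of Cd14 to Tlr4 counts averaged 3.29 ± 0.73 in group A, 4.91 ± 0.49 in group B, 4.25 ± 0.13 in group C and 6.34 ± 0.11 in group D (SD, n = 3). The libraries of group D were again above all others, and the intermediate headings, groups B and C, did not overlap. The log2 ratio of Cd180 to Tlr4 counts, the 2 receptors with related ectodomains, averaged 1.42 ± 0.14 in group A and 1.68 ± 1.25 in group B, where it spread from 0.49 to 2.99. It averaged 3.59 ± 0.15 in group C and 3.98 ± 0.12 in group D (SD, n = 3). All 6 libraries headed LPS+ were above all 6 headed LPS-.

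For the pair Ly86 and Cd180, the log2 ratio of counts was -10.54 and -9.41 in BMDM1 of groups A and B. It was between -2.17 and -3.63 in the other 4 LPS- libraries. It was between -2.93 and -3.93 in group C and between -3.53 and -4.11 in group D, so that these groups overlapped.

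**Figure D3:**
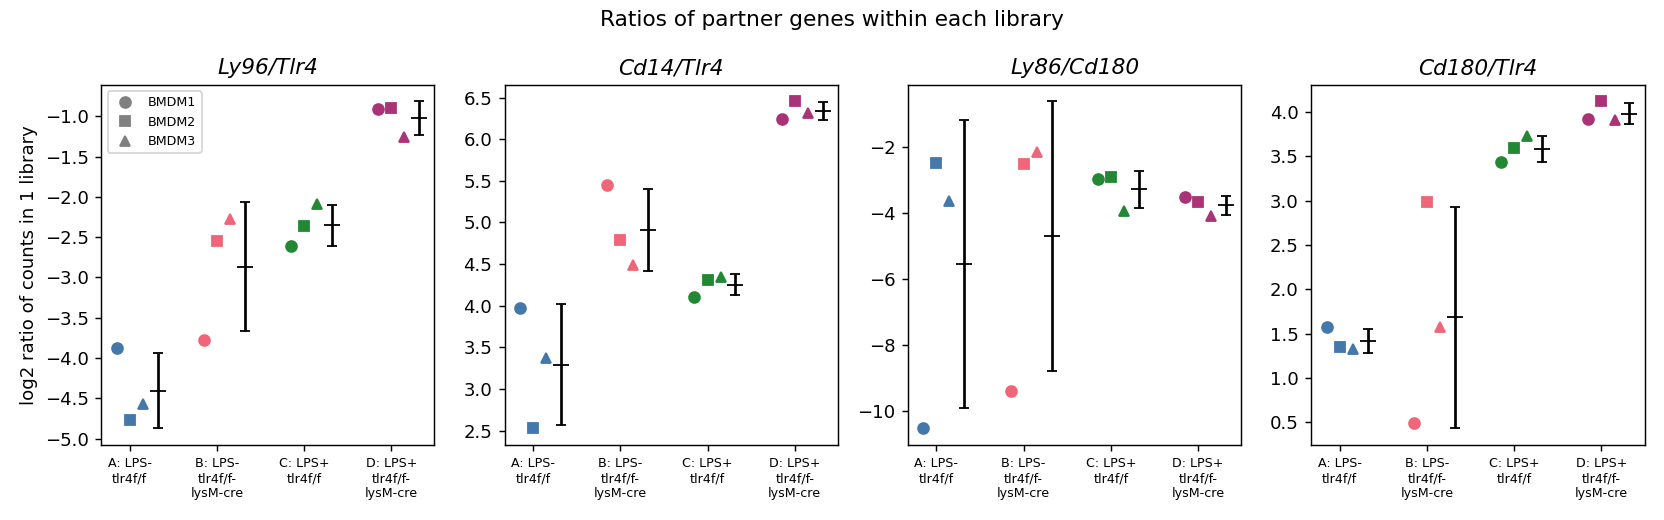
log2 ratio of the counts of 2 members within each library (y axis, a scale for each pair) by column heading (x axis). Symbols are libraries BMDM1 to BMDM3, black bars are the mean ± SD of 3 libraries, and the Ly96/Tlr4 and Cd14/Tlr4 ratios are highest in the 3 libraries of group D, with means of -1.02 and 6.34.

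Groups D and C were compared first, a comparison of genotypes under LPS as headed and of LPS in tlr4f/f-lysM-cre cells with the headings exchanged. Ly96 and Cd14 were higher in group D, and Tlr4 was not called. Cd14 differed by 1.97 ± 0.0624 on the log2 scale (SE; edgeR quasi-likelihood test, Benjamini-Hochberg adjusted p = 6.33e-11). Ly96 differed by 1.23 ± 0.133 (edgeR adjusted p = 4.81e-06). Both passed the study's criteria for a differentially expressed gene (DEG), namely an adjusted p below 0.01 with a change of more than 2-fold, which 10.8% of the 14551 genes tested passed as higher and 10.9% as lower. The count of 2 higher members stands beside this background. The groups did not overlap for 3 members, Ly96, Cd14 and Cd180, as for 67.4% of all genes tested.

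Cd180 was higher by 0.29 ± 0.0591 in group D (log2, SE; edgeR adjusted p = 0.00109), below the fold required of a DEG. Tlr4 differed by -0.12 ± 0.0900 (edgeR adjusted p = 0.280) and Ly86 by -0.25 ± 0.379 (edgeR adjusted p = 0.619). The median log2 fold change of all genes tested was -0.02. Markers of dendritic cells, a list of 5 genes, summed to 2.88 to 3.69 TMM CPM in group D and to 0.382 to 0.736 in group C. The group D sums were mostly Xcr1, at 2.06 to 2.70, and Ccr7, at 0.329 to 0.686. Zbtb46 was not called, and Flt3 and Siglech did not pass 0.0548 and 0.0442 in group D. The part of such cells in the differences of Ly96 and Cd14 was not tested.

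Groups B and A were compared next, a comparison of genotypes without LPS as headed and of LPS in tlr4f/f cells with the headings exchanged. Ly96 and Cd14 had means 3.12-fold and 3.14-fold higher in group B, and neither was a DEG. Their log2 fold changes were 1.64 ± 0.379 (SE; edgeR adjusted p = 0.0166) and 1.64 ± 0.361 (edgeR adjusted p = 0.0137). None of the 5 members was thus a DEG by edgeR, where 9.26% of the 14649 genes tested were higher and 7.81% lower. At an unadjusted p under 0.05 there were 2 members, as were 47.9% of all genes tested, and DESeq2 called 2 members among 3996 genes. The groups did not overlap for either Ly96 or Cd14, as for 54.4% of all genes tested. Without BMDM1, where Ly96 was at its lowest in group B, Ly96 was a DEG at 1.96 (edgeR adjusted p = 0.00645).

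Tlr4 differed by -0.07 ± 0.254 between these headings (log2, SE; edgeR adjusted p = 0.847), Cd180 by 0.46 ± 0.523 (edgeR adjusted p = 0.515) and Ly86 by 1.18 ± 1.97 (edgeR adjusted p = 0.665). The wide error of Ly86 is that of the 2 libraries with 9 counts. With both BMDM1 libraries left out, an alternative added after the data were seen, Ly86 differed by 1.19 ± 0.554 (edgeR adjusted p = 0.194). Ly96 then differed by 1.96 (edgeR adjusted p = 0.0215) and Cd14 by 1.33 (edgeR adjusted p = 0.0616). Stromal markers summed to 8.71, 60.2 and 657 TMM CPM in group A and to 136, 922 and 1461 in group B, and dendritic cell markers to 0.206 to 0.772 and to 4.74 to 13.1. In group B the dendritic sums were mostly Xcr1, at 2.617 to 5.475, and Ccr7, at 0.249 to 8.67 TMM CPM. Neutrophil markers, a list of 6 genes, reached 160.2 TMM CPM in BMDM3 of group B, the library highest in Ly96, against 0.562 to 25.15 in the other libraries of these headings. In BMDM3 of group B this sum was mostly S100a8 and S100a9, at 125 and 32.9 TMM CPM. Ly6g and Cxcr2 were at 0 there, and Elane and Mpo at 0.622 and 1.37. The part of stromal, dendritic or neutrophil cells in the values was not tested.

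Groups D and B compare LPS in tlr4f/f-lysM-cre cells as headed and genotypes under LPS with the headings exchanged. Tlr4 was the called member, lower in group D. The difference was -2.09 ± 0.134 (log2, SE; edgeR adjusted p = 0.000937), where 3.66% of the 14245 genes tested were called lower and 2.42% higher. Without any 1 of the 3 libraries of group D, the adjusted p of Tlr4 rose to 0.0119, 0.0142 and 0.0129, above the limit of 0.01. Over all genes, these fits called 4, 7 and 15, against 867 in the main fit. The groups of Tlr4 and Cd14 did not overlap, as for 48.4% of all genes tested, and Cd14 differed by -0.73 ± 0.285 (edgeR adjusted p = 0.103). Ly96 differed by -0.35 ± 0.366 (edgeR adjusted p = 0.513), Cd180 by -0.03 ± 0.478 (edgeR adjusted p = 0.967) and Ly86 by -1.17 ± 1.34 (edgeR adjusted p = 0.553). All 5 stromal markers were lower in group D at an adjusted p under 0.05 by edgeR, with a median log2 difference of -4.54 and sums of 29.2 to 43.0 TMM CPM against 136 to 1461 in group B. Neutrophil markers summed to 4.56 to 6.37 TMM CPM against 12.5 to 160.2, the highest sum being mostly S100a8 and S100a9. The part of stromal or neutrophil cells in the Tlr4 difference was not tested.

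Groups C and A compare LPS in tlr4f/f cells as headed and genotypes without LPS with the headings exchanged. Tlr4 and Cd14 had lower means in group C, at 24.4% and 48.2% of those in group A, without overlap between the groups, as for 35.1% of the 14712 genes tested. Their log2 differences were -2.02 ± 0.246 (SE; edgeR adjusted p = 0.0402) and -1.04 ± 0.175 (edgeR adjusted p = 0.0515). No member and no other gene was a DEG by edgeR, 0% of all genes tested in either direction, while 3626 genes (24.6%), 2 members among them, had an unadjusted p under 0.05 and DESeq2 called 464 genes, Tlr4 and Cd14 among them. Ly96 differed by 0.07 ± 0.145 (edgeR adjusted p = 0.786), Cd180 by 0.16 ± 0.177 (edgeR adjusted p = 0.609) and Ly86 by 0.27 ± 1.37 (edgeR adjusted p = 0.923).

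Groups D and A differ in both factors, and both have the same heading in either reading. Tlr4 was lower and Ly96 was higher in group D. Tlr4 differed by -2.16 ± 0.237 (log2, SE; edgeR adjusted p = 0.00138), with 6.45% of the 14595 genes tested called lower. Ly96 differed by 1.28 ± 0.166 (edgeR adjusted p = 0.00232), with 6.93% called higher. Cd14 differed by 0.91 ± 0.182 (edgeR adjusted p = 0.01002) and Cd180 by 0.43 ± 0.185 (edgeR adjusted p = 0.112). The groups did not overlap for Tlr4, Ly96, Cd14 and Cd180, as for 58.0% of all genes tested. Ly86 differed by 0.00 ± 1.37 (edgeR adjusted p = 0.999). Without BMDM1 or BMDM2 of group D neither Tlr4 (edgeR adjusted p = 0.0114 and 0.0128) nor Ly96 (edgeR adjusted p = 0.0155 and 0.0180) was a DEG. Without BMDM3, Ly96 alone was (edgeR adjusted p = 0.00659), Tlr4 having an adjusted p of 0.0117. Over all genes, the fits without BMDM1, BMDM2 or BMDM3 of group D called 656, 593 and 750, against 1952 in the main fit. Without BMDM3 of group A, Cd14 was a DEG as well, at 1.01 (edgeR adjusted p = 0.00486).

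**Figure D4:**
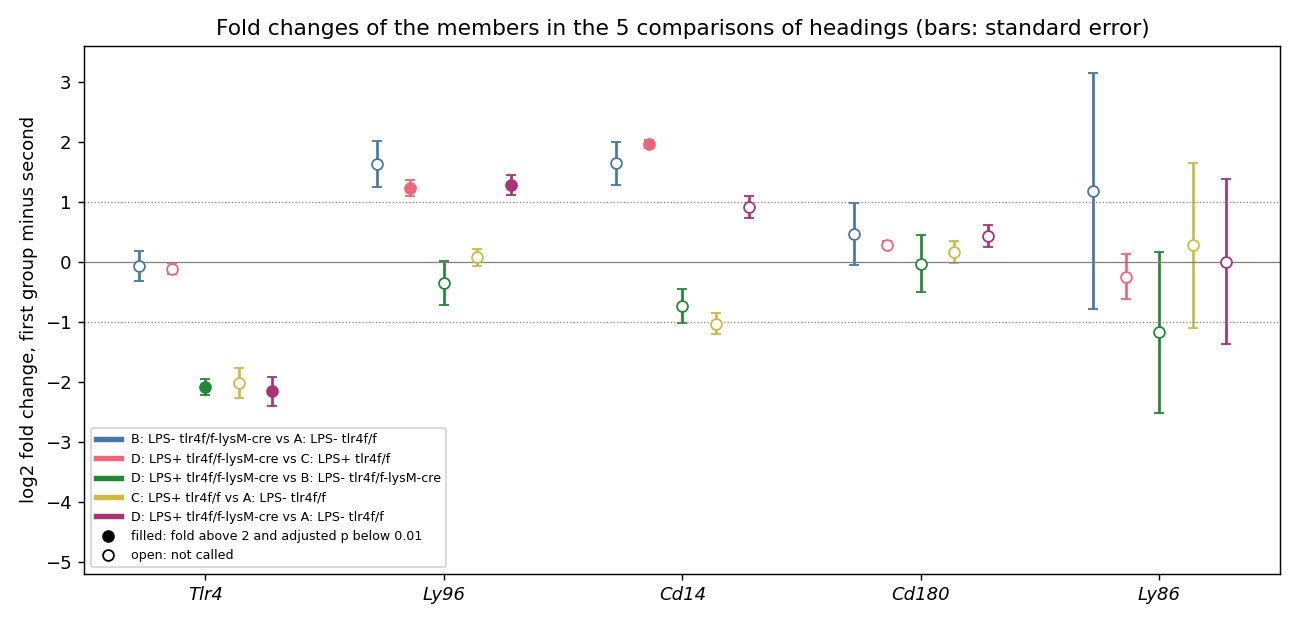
log2 fold change of each member (y axis, first group minus second; bars are standard errors of the edgeR fit) in 5 comparisons of groups, shown by colour. Filled points are DEGs, dotted lines mark a fold of 2, and Tlr4 is near -2 in the 3 comparisons of an LPS+ with an LPS- heading while Ly96 is at 1.23 to 1.64 in the 3 comparisons of a tlr4f/f-lysM-cre with a tlr4f/f heading.

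These 5 comparisons share libraries, so that their values for a member are not independent of each other. The difference between both genotype differences, over all 12 libraries, is the same sum of groups in either reading. No member was called in it, where 0.589% of the 15792 genes tested were higher and 0.405% lower. Its log2 value was -0.06 ± 0.280 for Tlr4, -0.42 ± 0.414 for Ly96, 0.31 ± 0.359 for Cd14, -0.21 ± 0.579 for Cd180 and -1.46 ± 2.14 for Ly86 (SE; edgeR adjusted p from 0.592 to 0.916). No member had an unadjusted p under 0.05 in it, against 23.4% of all genes tested, and DESeq2 called none.

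The genes whose log2 level was most like that of each member over the 12 libraries were taken by Pearson's r, as a description over libraries that share groups. For Tlr4 they were Gpank1 (r = 0.964), Lyz2 (r = 0.951) and Nucb2 (r = 0.941). Gpank1 ranged only from 12.6 to 14.8 TMM CPM under the LPS- headings and from 8.25 to 8.90 under the LPS+ headings, while Lyz2 ranged from 10.4 to 23331 TMM CPM. For Ly96 they were Elovl2 (r = 0.973), Gm1720 (r = 0.969) and Tmem87b (r = 0.969), of which Elovl2 and Gm1720 did not pass 1.03 and 2.05 TMM CPM in any library.

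For Cd14 the most similar genes were Agrn (r = 0.980), Zfp263 (r = 0.976) and Surf4 (r = 0.976). Agrn, which encodes the matrix proteoglycan agrin, ranged from 28.7 to 33.5 TMM CPM in group C to 230.1 to 484 in group B. For Cd180 they were Phlpp1 (r = 0.931), Rab43 (r = 0.919) and Prmt9 (r = 0.915), the first of which, like Cd180, was lowest and highest of the 12 libraries in BMDM1 and BMDM2 of group B. For Ly86 they were C1qb (r = 0.987), Naip6 (r = 0.966) and Ahcyl2 (r = 0.958). By rank over the same 12 libraries, Spearman's rho with Ly86 was 0.993 for C1qb and 0.692 each for Naip6 and Ahcyl2.

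Genes that act on the receptor were taken from lists by role. Over all genes tested, 10.8% were called higher and 10.9% lower between groups D and C. Between groups B and A, 9.26% were higher and 7.81% lower. Of 7 genes for LPS transfer and inactivation, 6 were tested between groups D and C, and 2 were DEGs, both higher: Aoah, which deacylates LPS, by 3.28 ± 0.131, and the scavenger receptor Msr1 by 1.56 ± 0.0635 (log2, SE). The median of the list was -0.05, against -0.02 for all genes. Between groups B and A, 1 of 7 was a DEG, Scarb1, which differed by -1.69 ± 0.260. Lbp, the serum protein that passes LPS to CD14 and is made mainly in the liver, had 0 to 83 counts a library.

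Of 6 genes for folding and export of TLR4, Rab10, a GTPase that brings TLR4 to the surface, was the only DEG in either comparison of genotype headings, by 1.49 ± 0.0612 under the LPS+ headings and by 1.27 ± 0.177 under the LPS- headings (log2, SE). The chaperone gene Hsp90b1 was at 303 to 742 TMM CPM over the 12 libraries and was not called. The list medians were 0.07 and 0.36, against -0.02 and -0.08 for all genes. Of 9 genes for uptake and degradation of TLR4, 1 was higher and 1 lower in both comparisons. Syk, a kinase needed for CD14-dependent uptake of TLR4, was higher by 2.43 ± 0.0549 under the LPS+ headings and by 2.45 ± 0.236 under the LPS- headings. Rab7b, a lysosomal GTPase known to lower TLR4, differed by -1.08 ± 0.0672 and -2.34 ± 0.260. The list medians were 0.10 and 0.14. Among all genes tested, 10.8% were called higher and 10.9% lower under the LPS+ headings, and 9.26% and 7.81% under the LPS- headings.

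Of 9 adaptors and kinases of TLR4 signalling, 5 were DEGs between groups D and C and 4 between groups B and A, all of them higher. Among all genes tested, 10.8% and 9.26% were called higher in these comparisons. Myd88, Ticam2, Irak2 and Irak3 were called in both, and Ticam1 in the first. Irak3, an inhibitory kinase of the family, was at 17.6 to 32.7 TMM CPM in the 6 libraries headed tlr4f/f and at 269.8 to 462 in the 6 headed tlr4f/f-lysM-cre. Myd88, the adaptor of most Toll-like receptors, was at 71.2 to 92.8 and 215 to 424 TMM CPM. Both genes therefore split the libraries as Ly96 and Cd14 did. The groups did not overlap for 67.4% of all genes tested between D and C, and for 54.4% between B and A. The list medians were 1.07 in each comparison, against -0.02 and -0.08 for all genes.

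Of 5 kinases and adaptors linked to RP105 in B cells, Lyn and Pik3ap1 were DEGs in both comparisons of genotype headings, and both were higher. Among all genes tested, 10.8% were called higher between groups D and C and 9.26% between groups B and A. Lyn differed by 1.85 ± 0.0645 under the LPS+ headings and by 2.47 ± 0.181 under the LPS- headings (log2, SE), and Btk was at 70.5 to 86.3 TMM CPM over the 12 libraries. The list medians were 0.83 and 1.23, against -0.02 and -0.08 for all genes. Between groups C and A no gene of any of these 5 lists was a DEG by edgeR, as was no gene of the whole table.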

How the data were processed

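The 5 members and all gene lists were chosen with earlier results of these data known. Total RNA libraries of 12 BMDM samples were made with the NEBNext Ultra kit, and the labels name both rRNA removal and polyA selection. The authors trimmed reads with Trimmomatic 0.36, aligned them with HISAT2 to mm10 and counted them with HTSeq, and they deposited raw counts per transcript row. From 115140 rows, the row with the highest total was kept per gene. Each comparison used its 6 libraries (12 for the difference of differences): filterByExpr, TMM scaling and a robust quasi-likelihood test in edgeR 4.0.16 (R 4.3.3), two-sided, with Benjamini-Hochberg adjustment over all genes tested. DEGs were changed more than 2-fold with an adjusted p below 0.01. Standard errors are the log2 fold change divided by the square root of F. Levels used TMM CPM over the 12 libraries, and r used log2 TMM CPM with a prior count of 2. The fits were also run on simulated counts, and the outcome of that run is not given here. Alternatives were DESeq2 1.42.0, other scaling, filters, thresholds and pooling of rows, all libraries in 1 fit, a replicate block, exchanged headings and the removal of each library. Positions and exons are those of GENCODE vM21. The named genes are the members, the 3 genes most like each, and up to 4 of each list. Lyz2 was also named from its place among the genes most like Tlr4. Counting depth limits Ly96, with 211 to 776 counts a library, and Ly86, with 9 counts in 2 libraries.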

Additional observations from a re-analysis of the deposited data

Results flagged for a closer look

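For 5 of 36 tested genes of the lists around the receptor, and for none of the 5 members, the difference between groups D and C was unlike that between groups B and A, with an adjusted p under 0.05 in the test of the difference of differences over 12 libraries. Over all genes tested, 6.99% had such an adjusted p. The test is the same in both readings of the headings. The value is the difference under the LPS+ headings minus that under the LPS- headings (log2, SE). It was 0.74 ± 0.148 for Cnpy3, a chaperone needed for folding of Toll-like receptors (edgeR adjusted p = 0.0164). It was 1.24 ± 0.270 for Rab7b (edgeR adjusted p = 0.0236), -0.70 ± 0.164 for Myd88 (edgeR adjusted p = 0.0316), 0.47 ± 0.117 for Irak1 (edgeR adjusted p = 0.0368) and -0.64 ± 0.157 for Lyn (edgeR adjusted p = 0.0362). All 5 moved the same way under both pairs of headings, and the size of the move was smaller under the LPS+ headings. Cnpy3 differed by -0.21 under the LPS+ headings and by -0.97 under the LPS- headings, and Irak1 by -0.20 and -0.69. None of the 5 passed the stricter limit of 0.01.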

How the results depend on the processing

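The 2 DEGs among the members between groups D and C, Ly96 and Cd14, kept their direction and their call under every alternative other than the exchange of headings, which compares group D with group B. Between groups B and A, the count of 0 became 2 (Ly96 and Cd14) with DESeq2, with no filter beyond 1 count, with all 12 libraries in 1 fit and at an adjusted p below 0.05 with no limit on the fold, and was 0 to 1 with single libraries left out. Over all genes, these 4 settings called 3996, 2716, 4258 and 5471 (37.3%), in this order, against 2500 in the main fit. Between groups C and A, the count of 0 became 2 with DESeq2 and 1 (Tlr4) both with all 12 libraries in 1 fit and at an adjusted p below 0.05. Over all genes, these settings gave 464, 75 and 188 (1.28%), against 0 in the main fit. Between groups D and B, it was 0 to 1 with single libraries left out, 0 without each library of group D. Between groups D and A, the count of 2 was 0 to 3 with single libraries left out. Exchanged headings gave 1 member for D and C and 2 for D and B. The cause of these changes was not tested.

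With the headings exchanged, log2 values reversed by construction. Cd14 became -1.03 for the pair B and A and 1.64 for C and A, and Ly96, Cd14 and Cd180 became -0.35, -0.73 and -0.0331 for D and C and 1.23, 1.97 and 0.29 for D and B. The other reversals were of members that were not called. Tlr4 between groups B and A was 0.00745 with DESeq2 and with RLE factors. Ly86 between groups D and A was -0.0267 with no filter beyond 1 count and -0.00132 with all 12 libraries in 1 fit. With single libraries left out, the values between groups B and A were -0.29 to 0.15 for Tlr4 and -0.24 to 0.88 for Cd180, those between D and B were -0.68 to 0.0358 for Ly96 and -0.45 to 0.67 for Cd180, and those of Ly86 were -0.30 to 1.59 between C and A and -0.58 to 1.30 between D and A. In the difference of differences, Tlr4 was -0.27 to 0.18 and Cd180 -0.58 to 0.53, and Tlr4 was 0.21 without both BMDM1 libraries of groups A and B, chosen after seeing the data.

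Pairing by replicate number was not settled. Deviations of same-numbered libraries correlated at 0.472, 0.340 and 0.0138 between A and B, and at 0.0583 to 0.190 between C and D. Elsewhere signs were mixed. With the replicate block, no member was a DEG between groups D and A, a count of 0, with an edgeR adjusted p of 0.0102 for Tlr4 and 0.0127 for Ly96. Cd180 between groups D and B was 0.21 under the block, and the count of DEGs over all genes fell from 867 to 212 there and from 1952 to 921 between D and A.

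Over all genes, DESeq2 called 3996 DEGs against 2500 between groups B and A, 2006 between D and B, 464 against 0 between C and A, 2967 between D and A and 644 against 157 for the difference of differences. All 12 libraries in 1 fit gave 4258 between B and A, 2053 against 3165 between D and C and 75 between C and A, where no filter beyond 1 count gave 34. An adjusted p below 0.05 alone gave 5471 between B and A, 8938 between D and C, 3804 between D and B, 188 between C and A, 5944 between D and A and 1104 for the difference of differences. Without both BMDM1 libraries, 371 genes were called between B and A. Leaving out 1 library of group D left 4 to 15 genes between D and B and 593 to 750 between D and A. Any 1 library left out gave 1039 to 1683 between B and A. In the difference of differences, 10 to 21 genes were left without any 1 library of groups C and D, against 99 to 306 without any 1 of groups A and B. Between C and A, 6 and 182 were called without BMDM2 and BMDM3 of group A.

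Ly86 could not be fitted with at least 10 counts in every library wherever group A or B took part. Summing transcript rows raised the library totals, so that mean levels fell, for Tlr4 in group A from 114.5 to 33.6 TMM CPM, and it moved by construction the ratios that hold Ly96 or Cd180.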
